A study of Arabidopsis thaliana with 3 samples.

Results

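The comparison described here sets *Arabidopsis* OE line #3 (35S:SlHsfA3-3) against wild-type Col-0, with 1 RNA-seq library a side. Of the 33602 genes in the table of reads, 18587 had at least 10 reads in one of these libraries and were compared. Line #3 expresses the tomato heat stress transcription factor gene *SlHsfA3* in the Col-0 background from the CaMV 35S promoter, which is active in most tissues and was not induced by any treatment. A second, independent insertion of the same construct, OE line #6 (35S:SlHsfA3-6), has 1 library of its own and is used to find what was called in line #3 and not in line #6. For each library, the aerial parts of 20 plants were pooled at an age of 4 weeks; the plants had not been stressed and grew at 22°C with 16 h light and 8 h darkness. There were no replicates, so no test of the genotype was possible, no p-value is given, and every statement compares these libraries. Line #3 and line #6 were both set against the same Col-0 library, so a deviation of that library enters both ratios.

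Heat stress transcription factors (Hsfs) bind arrays of the short unit nGAAn, the heat shock element, upstream of genes for heat shock proteins (Hsps). Hsps are chaperones: small Hsps hold unfolding proteins in solution, whereas Hsp70, Hsp90 and Hsp100 proteins refold or disaggregate them. HsfA3 acts in *Arabidopsis* downstream of the DREB2 transcription factors, and in the wild type its targets are induced by heat and drought.

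Reads in genes came to 11556077 in line #3, 10786332 in line #6 and 9968154 in Col-0. After TMM scaling, 3 reads, the limit that a count of 0 allows, corresponded to 0.275, 0.258 and 0.307 CPM (counts per 1000000 scaled reads, the level used below) in the same order. Ribosomal RNA genes took 32.5%, 20.9% and 26.6% of the reads, and genes of the chloroplast genome took 18.9%, 14.0% and 15.8%, including the chloroplast ribosomal RNA genes that both shares count (16.2%, 11.8% and 13.5%). The library was labelled as aerial tissue. Genes annotated to photosystems and antennae summed to 45478 CPM in line #3, 38085 CPM in line #6 and 42112 CPM in Col-0. This list is not nuclear only, as it holds the chloroplast gene ATCG00220 with 62.9, 91.8 and 192 CPM. The root peroxidase gene *PER57* had 0 reads in every library, but *PYK10*, a root and hypocotyl beta-glucosidase gene, had 647, 895 and 598 reads. Reads of the transgene itself cannot be seen in the table, which holds *Arabidopsis* genes. Its *Arabidopsis* counterpart *AtHSFA3* had 6 reads in line #3, 4 in line #6 and 9 in Col-0, too few to be compared.

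A gene was called higher or lower when its TMM-scaled ratio was at least 2-fold and the 95% exact interval of the ratio (Clopper-Pearson on the reads of both libraries) did not hold 1. These intervals cover counting error only, not the variation between plants or library preparations. By this rule 478 genes (2.57% of those compared) were higher in line #3 than in Col-0 and 309 (1.66%) were lower. Line #6 had 210 genes (1.13%) higher and 305 (1.64%) lower than Col-0 among the same genes. The read minimum took no account of line #6, so a gene with 10 reads or more only there was not compared. The median ratio of the called genes was 2.69-fold among the higher ones and 2.60-fold among the lower ones. A ratio of 5-fold or more was reached by 76 of the higher and 31 of the lower genes. Among the 478, 194 stayed below 10 reads in Col-0 and entered the comparison only through line #3, where they had to be higher. Likewise 101 of the 309 stayed below 10 reads in line #3. The 7 reference genes, among them *ACT2*, *UBQ10* and *PP2AA3*, had ratios of 0.838 to 1.16 and none was called.

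**Figure D1:**
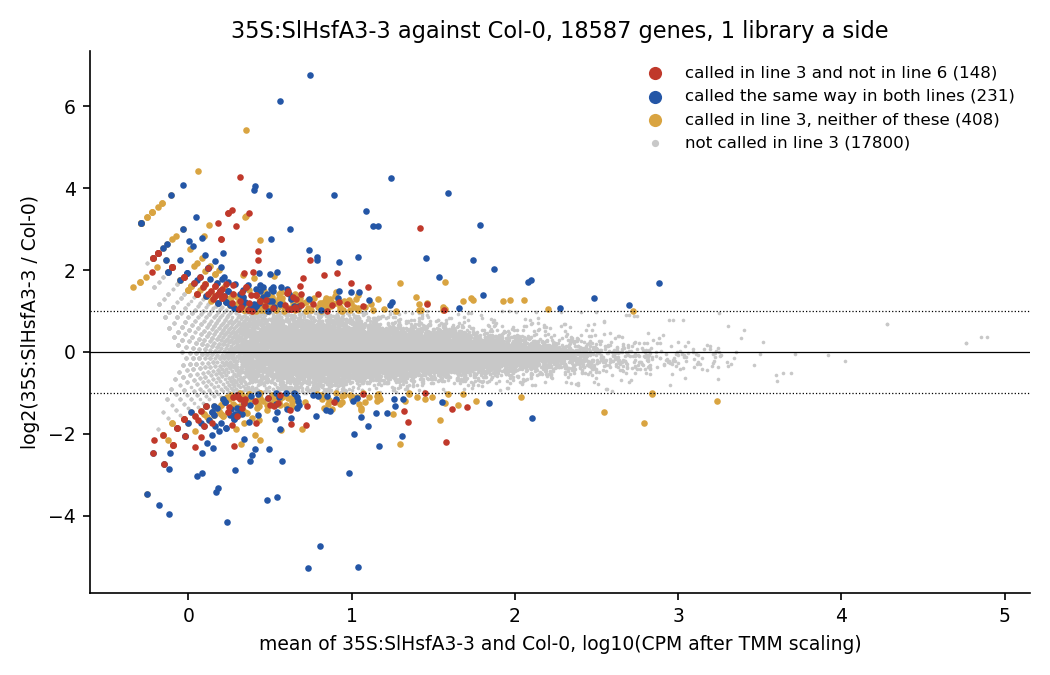
Each point is 1 of 18587 genes, with the mean level of line #3 and Col-0 (log10 CPM) on the x axis and the log2 ratio of line #3 to Col-0 on the y axis, and dotted lines at 2-fold. Called genes of every class lie mostly at low levels, both those called in line #3 and not in line #6 (148) and those called the same way in both lines (231). Where a library had 0 reads, 3 reads were used for the ratio.

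The small Hsp and co-chaperone genes called higher in line #3 were called higher in line #6 too, where these lists held 11 and 8 such genes. Of 18 small Hsp genes compared, 10 were called higher and none lower in line #3, and each of the 10 was also called higher in line #6. Their list median was 1.21 on the log2 scale, against 0.0021 for all genes compared, and 4 of the 18 had passed the read minimum only through line #3. *HSP17.4-CI*, a cytosolic class I small Hsp gene, had 265 reads in line #3, 433 in line #6 and 28 in Col-0, a ratio of 8.48 (95% interval 5.73 to 13.0) in line #3. *HSP18.1-CI* had 27, 53 and 11 reads and the lowest ratio of the called members, 2.20. *HSP23.5-M*, a mitochondrial member, had 67, 109 and 113 reads, a ratio of 0.531 that was not past the limit. Of 13 co-chaperone and thermotolerance genes, 7 were called higher and none lower, again each in both lines. They include *HSA32*, needed for the memory of acquired thermotolerance, with 101 reads in line #3, 78 in line #6 and 16 in Col-0 (ratio 5.66, interval 3.32 to 10.3). *BAG6*, a calmodulin-binding co-chaperone gene, had 128, 160 and 46 reads.

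Of 17 Hsp70 genes 4 were called higher and 2 lower in line #3, with 9 ratios above 1, and of 10 Hsp90 and Hsp100 genes 1 was called higher and 2 lower, with 5 ratios above 1. *HSC70-2*, a constitutive cytosolic Hsp70 gene, had 2037 reads in line #3, 3170 in line #6 and 5025 in Col-0, and it was 2.75-fold lower in line #3 (ratio 0.363, interval 0.345 to 0.382). *HSC70-3* had 11377, 14590 and 23613 reads (2.32-fold lower in line #3). *HSP90.3* and *HSP90.2*, cytosolic Hsp90 genes, had 4971 and 5031 reads in line #3, 7726 and 6066 in line #6, and 9132 and 9038 in Col-0. All 4 had fewer scaled reads in line #6 than in Col-0 too, but line #6 did not reach 2-fold for any of them. *HSP90.2* and *HSP90.3* stood at the limit in line #3, 2.01-fold and 2.05-fold lower. These genes have close paralogs, and how reads shared between copies were counted is not known, so single members are uncertain. Over the whole family, Hsp70 genes summed to 8572 CPM in line #3, 9498 CPM in line #6 and 11238 CPM in Col-0. The induced gene *HSP70* (AT3G12580) had 12641, 16696 and 3541 reads and was 3.20-fold higher in line #3, and *BIP3*, an Hsp70 gene of the endoplasmic reticulum, had 533, 437 and 236 (2.02-fold higher). With scaling by total reads *BIP3* was 1.95-fold higher and not called, and 2 Hsp70 genes were called higher in place of 4.

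Among 15 genes for *Arabidopsis* Hsfs, none was called higher in line #3 and 2 were called lower. *HSFA2*, which encodes the dominant Hsf of prolonged heat stress, had 45 reads in line #3, 54 in line #6 and 163 in Col-0, 4.04-fold lower in line #3 (interval of the ratio 0.174 to 0.346). *HSFA7A* had 9, 15 and 24 reads (2.98-fold lower, interval of the ratio 0.137 to 0.749). It passed the read minimum only through Col-0, which fixed its direction, and it was not called in line #6. *HSFB2A*, a class B member, had 248, 330 and 116 reads, and its ratio of 1.92 in line #3 was not past the limit.

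Heat shock elements were sought in the 500 bases before each gene's annotated start (RefSeq annotation of TAIR10.1). The motif GAANNTTC, which reads the same on both strands, was in 18.2% of all 37897 such windows. A longer element, GAANNTTC with NNGAA after it or TTCNN before it, was in 0.815% of them. The windows of genes called higher in both lines held the longer element in 5 of 125 cases (4.00%), and those of genes called lower in both lines in 2 of 101 (1.98%). None of the 93 windows of genes higher in line #3 and not in line #6 held it, nor did any of the 51 windows of genes lower in line #3 and not in line #6. Among all genes compared the share was 0.850%, and sets of 93 and 51 windows are too small to tell no match from that share. The called genes that met neither description held it in 4 of 248 windows (1.61%) where higher and 4 of 152 (2.63%) where lower. The shorter motif was in 20.0% of the windows of genes higher in both lines, in 14.0% of those of genes higher in line #3 and not in line #6, and in 19.6% of those of genes lower in line #3 and not in line #6. Without the genes of the heat lists, the longer element was in 1.92% of 104 windows of genes higher in both lines. A match is a string of letters, not a site shown to be bound, and a window without a match may hold other forms of the element.

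The windows below show the longer element in capitals where it was found, with up to 40 bases on each side. They belong to 3 genes higher in both lines and to the pair of Hsf genes called lower in line #3, of which only *HSFA2* was called lower in line #6 too. Also shown are the last 100 bases before *GRP17* and *LTP4*, which lead the genes higher and lower in line #3 and not in line #6. Neither holds GAANNTTC in 500 bases. All are read 5′ to 3′ on the gene's strand. They lie at chr3:16984868-16984925 (minus strand, *HSP17.4-CI*), chr1:19980206-19980298 (plus, *HSP17.6C-CI*), chr2:19370526-19370618 (minus, *GolS1*), chr2:11135496-11135588 (plus, *HSFA2*), chr3:19264959-19265051 (plus, *HSFA7A*), chr5:2384526-2384625 (minus, *GRP17*) and chr5:23925958-23926057 (minus, *LTP4*) of TAIR10.1. The table of reads holds no coordinates.
HSP17.4-CI: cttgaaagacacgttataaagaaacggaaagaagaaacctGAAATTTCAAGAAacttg
HSP17.6C-CI: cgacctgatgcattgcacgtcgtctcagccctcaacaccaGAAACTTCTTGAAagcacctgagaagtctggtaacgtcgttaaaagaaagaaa
GolS1: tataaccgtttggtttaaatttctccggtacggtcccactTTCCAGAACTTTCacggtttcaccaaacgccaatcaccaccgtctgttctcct
HSFA2: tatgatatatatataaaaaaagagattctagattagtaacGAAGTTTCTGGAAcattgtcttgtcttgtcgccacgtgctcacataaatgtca
HSFA7A: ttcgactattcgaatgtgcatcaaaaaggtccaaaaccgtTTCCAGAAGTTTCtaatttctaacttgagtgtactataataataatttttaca
GRP17: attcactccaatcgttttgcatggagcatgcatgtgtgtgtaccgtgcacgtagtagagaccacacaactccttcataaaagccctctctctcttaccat
LTP4: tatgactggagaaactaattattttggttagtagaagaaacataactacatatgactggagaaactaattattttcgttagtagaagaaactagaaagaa

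The element thus stood before genes of both directions. *HSP17.6C-CI*, a class I small Hsp gene, had 81 reads in line #3, 98 in line #6 and 9 in Col-0 (ratio 8.06 in line #3, interval 4.04 to 18.3). *GolS1*, a galactinol synthase gene, had 2118, 2556 and 565 (3.36, interval 3.06 to 3.69).

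What was changed in line #3 and not in line #6 was asked with a stricter rule. A gene had to be called in line #3 against Col-0 and in the same direction in line #3 against line #6, and line #6 had to lie within 1.5-fold of Col-0 or on the other side of it. Directly between the lines, 397 genes (2.14%) were called higher in line #3 than in line #6 and 124 (0.667%) lower. These counts are not on an equal footing. Genes that reached 10 reads only in line #6 were left out, whereas 740 of the 18587 passed the minimum in line #3 and not in Col-0. The full rule was met by 97 genes (0.522%) higher in line #3 and not in line #6 and by 51 genes (0.274%) lower. The other called genes were shared with line #6 in 126 higher and 105 lower cases, and 255 higher and 153 lower genes met neither description. Among the 255, 13 had 0 reads in line #6, where 3 reads stood in for 0 and could put a ratio past the 1.5-fold limit. Scaling by total reads, in place of TMM, put 61 genes in the higher class and 92 in the lower one, so that 39.9% were higher against 65.5% with TMM, and that scaling moved the median log2 ratio of all genes to -0.05 in line #3 and 0.13 in line #6. Of the 97, 47 were below 10 reads in Col-0, and 17 had 0 reads in line #6. Of the 51, 22 were below 10 reads in line #3. For the 47 and the 22 the read minimum fixed the direction. Of the 97, 29 reached 50 reads in line #3 or Col-0, as did 12 of the 51 lower genes. Few reads were common among the shared genes too, of which 54 of 126 higher and 42 of 105 lower ones reached 50. The median level of the 97 was 3.30 CPM in line #3, 0.859 CPM in line #6 and 1.02 CPM in Col-0, and that of the 51 was 1.19, 2.75 and 2.86 CPM. The 126 genes higher in both lines had medians of 3.80, 3.48 and 1.28 CPM, against 12.55, 12.46 and 12.47 CPM for all genes compared.

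**Figure D2:**
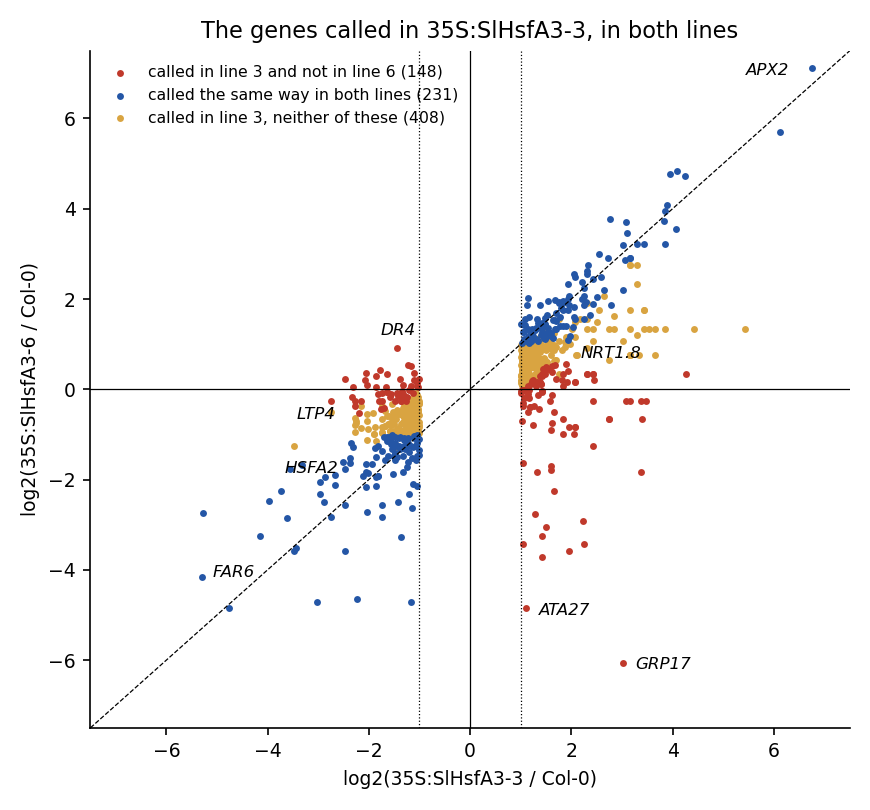
The 787 genes called in line #3, by log2 ratio to Col-0 in line #3 (x axis) and in line #6 (y axis), with the dashed line where both ratios are equal and dotted lines at 2-fold. Genes called in line #3 and not in line #6 (148) lie near the horizontal line or across it, down to *GRP17* at 3.02 in line #3 and -6.06 in line #6, and both axes share the Col-0 library, with 3 reads in place of 0.

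Genes for the pollen coat and the late tapetum, the anther layer that supplies the coat, made up more of the 97 than any other list used. Of 15 listed genes 13 were compared, and 10 were called higher and none lower in line #3, but 4 of the 13 had passed the read minimum only through line #3, where they had to be higher. All 10 met the rule for line #3 and not line #6. In line #6, 10 members were called lower, but these are not the same genes. *GRP16*, *GRP18* and *EXL6* met the rule and were not called in line #6. The whole list summed to 1507 reads (138 CPM) in line #3, 96 reads (8.25 CPM) in line #6 and 532 reads (54.4 CPM) in Col-0. *GRP17*, an oleosin-domain protein that the coat needs for pollen hydration, had 506 reads in line #3, 1 in line #6 and 56 in Col-0, a ratio of 8.09 (interval 6.13 to 10.9) in line #3 to Col-0 and of 539 (interval 96.4 to 21343) in line #3 to line #6. The Col-0 library thus lay between the lines.

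The members of the *GRP* cluster went together. *GRP19* had 100 reads in line #3, 0 in line #6 and 19 in Col-0 (ratio to Col-0 4.71, interval 2.87 to 8.16). *GRP14* had 48, 1 and 9 reads (4.78, interval 2.32 to 11.1), and *GRP20* had 43, 1 and 10 (3.85, interval 1.91 to 8.60). All encode pollen coat oleosins, and the line #3 library was the highest for each. *GRP16* had 37, 0 and 3 reads (11.05, interval 3.50 to 56.0). *GRP18* had 13 reads in line #3, 2 in line #6 and 0 in Col-0, at least 3.88-fold higher in line #3 than in Col-0 against the limit of 3 reads (lower bound of the exact interval 2.73). *GRP14*, *GRP18*, *GRP17*, *GRP16*, *GRP19* and *GRP20* follow one another on chromosome 5, and these 6 were the longest run of neighboring compared genes called the same way. Neighboring copies of 1 family may share reads, the rule for such reads is not known, and *GRP16* overlaps another annotated gene, so single members are uncertain.

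The extracellular lipase genes of the coat repeated this. *EXL4* (AT1G75910) had 99 reads in line #3, 0 in line #6 and 33 in Col-0, and *EXL6* (AT1G75930) had 35, 0 and 3. *ATA27*, a beta-glucosidase gene of the tapetum, had 176, 0 and 73. With *EXL4* and *EXL6* it made a run of 3 called genes on chromosome 1. *ATA20*, an anther-specific gene, had 206 reads in line #3, 21 in line #6 and 61 in Col-0 (ratio to Col-0 3.03, interval 2.26 to 4.09). Not every member moved: *ATA7* had 16, 3 and 14 reads (ratio 1.02), and AT5G22430 had 203, 60 and 220 (ratio 0.827). Both were thus level between line #3 and Col-0 and low in line #6.

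**Figure D3:**
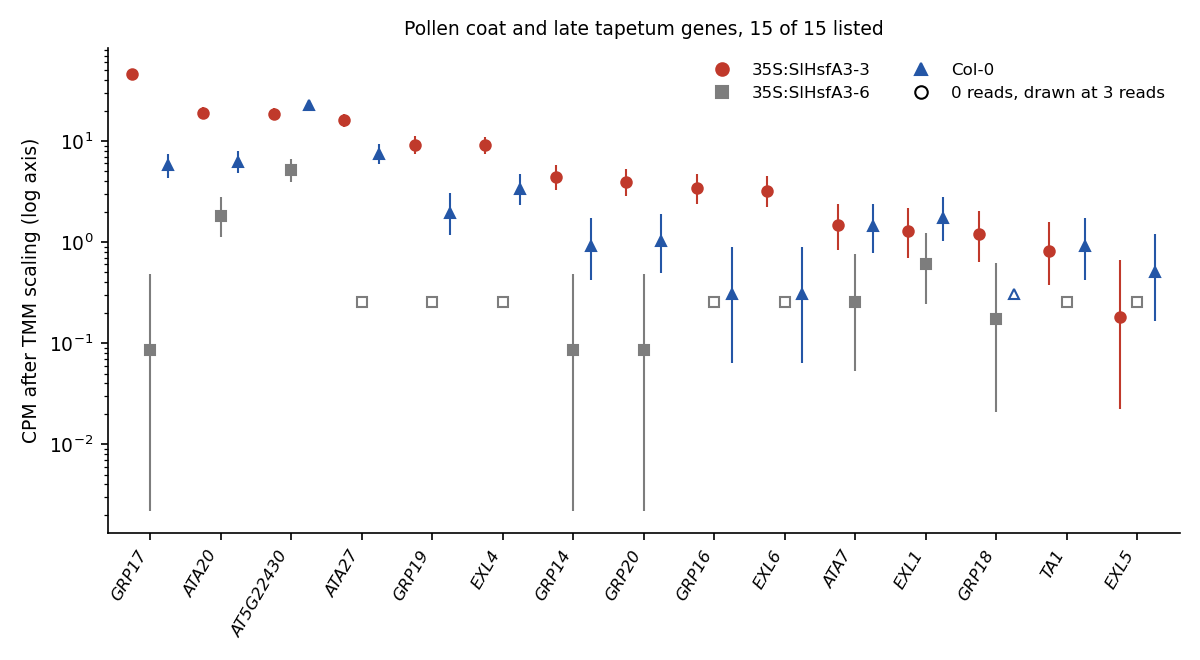
Levels of the 15 pollen coat and late tapetum genes in line #3, line #6 and Col-0 (CPM after TMM scaling, log axis), with 95% exact Poisson intervals that cover counting error only, 1 library each. Line #3 is the highest library for the 10 called genes, from *GRP17* at 46.3 CPM to *GRP18* at 1.19 CPM, and line #6 is the lowest for every gene except *GRP18*; open symbols mark 0 reads and are drawn at 3 reads.

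Further genes of pollen and pollen tube walls were among the 97, and most of them had too few reads in line #6 and Col-0 to tell those libraries apart. Among the 12 leading genes of the rule were AT3G14040 and AT5G07410, annotated as pectin lyase-like, with 43 and 47 reads in line #3, 0 and 0 in line #6, and 2 and 4 in Col-0. The ratio of AT3G14040 to Col-0 was 19.3 with an interval of 5.02 to 164. *SKS13*, a multicopper oxidase-like gene of pollen, had 35 reads in line #3, 1 in line #6 and 3 in Col-0. The DUF1216 genes AT3G28980 and AT3G28830 had 38 and 30 reads in line #3, 4 and 0 in line #6, and 4 and 3 in Col-0. Of 7 DUF1216 genes compared, 2 met the rule and 3 more were called higher in line #3 without meeting it. Among these was AT3G28790 with 29, 0 and 0 reads. It had no ratio of line #6 to Col-0, so it could not meet the rule. AT3G07850, a pectin lyase-like gene outside the 97, had 48 reads in line #3, 0 in line #6 and 1 in Col-0 (ratio to Col-0 43.0, interval 7.36 to 1733). AT3G14040 and AT3G07850 are close copies, as are the *VGD1* and *VGDH2* genes named next, so their single counts are uncertain. Named after their values were seen, *PGA4*, *VGDH2* and *QRT3* are further genes of pectin breakdown. They had 30, 16 and 25 reads in line #3, 0, 0 and 3 in line #6, and 4, 4 and 9 in Col-0. Of the 5 mature pollen genes listed, *PPME1* and *VGD1* were compared and called higher, with 11 and 20 reads in line #3, 0 and 0 in line #6, and 0 and 5 in Col-0. Like every other gene named above in this paragraph, both passed the read minimum only through line #3, which fixed their direction. *AGP6*, *AGP11* and *VEX1* had 7, 2 and 3 reads in line #3, 5, 0 and 5 in line #6, and 5, 3 and 5 in Col-0, below the minimum.

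Of 9 genes of the early tapetum and of sporopollenin, 1 was called higher in line #3 and 2 were called lower, and 7 were called lower in line #6. The read minimum had been passed only through line #3 by 3 of them and only through Col-0 by another 2, which are the 2 lower ones. The median log2 ratio was 0.54 in line #3, with 6 of 9 ratios above 1, and -1.84 in line #6. *ACOS5*, an acyl-CoA synthetase gene for sporopollenin, had 22 reads in line #3, 1 in line #6 and 7 in Col-0. *MS2* and *CYP703A2*, which act in the same pathway, had 6 and 6 reads in line #3, 4 and 0 in line #6, and 22 and 18 in Col-0. The tapetum regulators *DYT1*, *TDF1* and *MYB80* had 0 reads in line #3. The early list summed to 21.0 CPM in line #3, 6.53 CPM in line #6 and 16.97 CPM in Col-0.

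Of 8 floral organ identity genes compared, none was called in line #3 and 5 were called lower in line #6. *SEP1* had 57, 60 and 72 reads in line #3, line #6 and Col-0, and *SEP4* had 161, 175 and 189. *AP3*, the petal and stamen identity gene, named after its values were seen, had 41, 8 and 34 reads. The list summed to 43.5 CPM in line #3, 26.6 CPM in line #6 and 44.6 CPM in Col-0, so line #3 was near Col-0 there. The 8 seed storage genes together had 3 reads in line #3, 4 in line #6 and 0 in Col-0. Whether the pools differed in the number or stage of flowers was not tested, and in bulk tissue more cells of a type and more RNA per cell cannot be told apart. Of 13 flowering time genes, *MAF5*, a repressor of flowering, was the one called in line #3, with 64, 74 and 4 reads, and it was called higher in line #6 too. *MAF5* was 1 of 3 among the 13 that passed the read minimum only through line #3, which fixed their direction. Another 2 of the 13 were called lower in line #6.

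Genes of mitosis and cytokinesis formed another group, drawn up after their values were seen. Of 21 compared, 5 were called higher in line #3, none lower and none in line #6, and 19 had a ratio above 1. Their median log2 ratio was 0.80 in line #3 and 0.19 in line #6. The whole list summed to 96.5 CPM in line #3, 64.3 CPM in line #6 and 57.5 CPM in Col-0. *TPX2*, a spindle assembly factor, had 78 reads in line #3, 38 in line #6 and 26 in Col-0 (ratio to Col-0 2.69, interval 1.705 to 4.37). It overlaps AT1G03770, a gene outside the list with 49, 35 and 27 reads. *PLEIADE*, a microtubule bundling protein of the phragmoplast, had 66, 35 and 21 (2.82, interval 1.701 to 4.84), and *CYCB1;2*, a mitotic cyclin, had 71, 34 and 26 (2.45, interval 1.54 to 4.00). These 3 met the rule for line #3 and not line #6 with TMM, and none of the list did with total reads.

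*CDC20.2*, an activator of the anaphase-promoting complex, had 42 reads in line #3, 30 in line #6 and 15 in Col-0, and *CYCB2;2* had 37, 24 and 16, so line #6 lay between. *HINKEL* and *CDC20.1* had 86 and 86 reads in line #3, 37 and 46 in line #6, and 39 and 40 in Col-0, just under 2-fold at 1.98 and 1.93. *CDKB1;1* went the other way, with 16, 23 and 18 reads (ratio 0.796). Of 36 genes annotated as kinesins or microtubule motors, 3 met the rule, among them *KINESIN-12B* of the phragmoplast with 67, 33 and 28 reads. The other 2, AT2G22610 and AT5G33300, had 44 and 25 reads in line #3, 19 and 12 in line #6, and 18 and 8 in Col-0. These genes outside the list were chosen after their values were seen, as was *WYR*. *WYR*, an inner centromere protein gene, had 60, 25 and 26 reads. With total reads *KINESIN-12B*, AT5G33300 and *WYR* no longer met the rule.

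Genes of the chloroplast genome stood higher in line #3 as a whole. Of 98 compared, 8 were called higher and 3 lower, beside 2.57% and 1.66% of all genes compared. Their median log2 ratio was 0.42 in line #3 and -0.48 in line #6. With scaling by total reads 6 were called higher and 5 lower in line #3. Among the 4 genes of the plastid-encoded RNA polymerase, a list added after values were seen, *rpoC1* had 440 reads in line #3, 158 in line #6 and 174 in Col-0 (ratio to Col-0 2.27, interval 1.90 to 2.72). *rpoB* had 542, 281 and 237 (2.05, interval 1.76 to 2.40). Both met the rule for line #3 and not line #6 with TMM, but with total reads *rpoB* was 1.97-fold higher and not called. *rpoC2* had 690, 334 and 341 reads and *rpoA* had 3734, 2886 and 2117, ratios of 1.81 and 1.58 that were not past the limit. Plastid RNA largely lacks the tails by which the protocol's poly(A) purification selects, and the ribosomal RNA share named above was highest in line #3 as well. The part of the selection step in these values was not tested. Of 59 genes of the mitochondrial genome, 2 were called higher and 2 lower, beside the same 2.57% and 1.66%. The read minimum had been passed only through line #3 by 6 of the 59 and only through Col-0 by 4, which fixed their direction.

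Other genes of the 97 belonged to none of these groups, and a few of them are described here. *NRT1.8*, which removes nitrate from the xylem sap, had 140 reads in line #3, 52 in line #6 and 33 in Col-0 (ratio to Col-0 3.80, interval 2.59 to 5.74). It overlaps AT4G21670 in the annotation, a gene with 255, 346 and 300 reads. *BSMT1*, which makes methyl salicylate and methyl benzoate, had 49, 11 and 8 reads (5.49, interval 2.58 to 13.4). It overlaps AT3G11490, a gene with 110, 96 and 59 reads. *LAC17*, a laccase of lignin formation, had 165, 80 and 46 (3.21, interval 2.31 to 4.56). AT4G08780, a peroxidase gene, had 86, 30 and 22 (3.50, interval 2.17 to 5.88). Named after their values were seen, *FTM1*, a stearoyl-ACP desaturase gene, had 116, 49 and 28 reads, *ARGOS*, an organ size gene, had 74, 25 and 30, and *EGL3*, a bHLH factor of trichome and pigment formation, had 41, 18 and 14. Chosen in the same way, *TPS04*, a terpene synthase gene, had 114, 51 and 46 reads, *UCC2*, a uclacyanin gene, had 141, 58 and 56, and *SDN1*, a nuclease that degrades small RNAs, had 38, 12 and 9. With scaling by total reads, *LAC17* and *FTM1* no longer met the rule, since their ratios of line #6 to Col-0 became 1.61 and 1.62.

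The 51 genes lower in line #3 and not in line #6 were spread, with no more than 1 of them in any list used. *LTP4*, a lipid transfer protein gene, had 147 reads in line #3, 502 in line #6 and 606 in Col-0, 4.60-fold lower in line #3 (interval of the ratio 0.180 to 0.261). *ZIP9*, of the zinc and iron transporter family, had 248, 813 and 582 (2.62-fold lower, interval of the ratio 0.328 to 0.444). AT4G36850, a PQ-loop membrane protein gene, had 113, 293 and 330 (3.26-fold lower), and AT1G62420, of unknown function, had 311, 708 and 713 (2.56-fold lower). The rule itself kept line #6 within 1.5-fold of Col-0 for these genes, and *LTP4* in line #6 was at 0.696 of Col-0 (interval 0.617 to 0.785).

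*DR4*, a drought-repressed gene, had 122 reads in line #3, 669 in line #6 and 298 in Col-0, so that line #6 lay above Col-0 by 1.89-fold. *MYB90* (*PAP2*), an activator of anthocyanin synthesis, had 51, 186 and 107 reads (2.34-fold lower, interval of the ratio 0.300 to 0.601). Its partner gene *PAP1* had 114, 193 and 110, and of 18 flavonoid and anthocyanin genes *PAP2* was the only one called, so the pigment genes themselves were not among the 51. *LSU1*, a marker of sulfur limitation, had 26, 128 and 80 reads, whereas *LSU2* had 177, 209 and 263. It was the only one of 12 sulfur limitation genes called. *CSLG2*, a cellulose synthase-like gene, had 205, 512 and 369 reads, just past the limit at 2.01-fold lower.

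The remaining leading genes had few reads. AT1G11210 had 7 reads in line #3, 38 in line #6 and 31 in Col-0, AT1G24580, a RING domain gene, had 21, 56 and 64, and the defensin-like gene AT3G59930 had 13, 44 and 39. The noncoding RNA gene AT1G67105 had 0, 12 and 12 reads, at least 4.46-fold lower in line #3 than in Col-0 against the limit of 3 reads (upper bound of the ratio by the exact interval 0.322). Named after their values were seen, *XTH19*, a xyloglucan-modifying enzyme gene, had 33, 82 and 74 reads, and the phosphate starvation RNA gene *IPS1* had 13, 38 and 25. Chosen in the same way, *SKOR*, a potassium channel gene of xylem loading, had 3, 13 and 13. It overlaps AT3G02840, which met the rule in the higher direction with 31, 15 and 13 reads.

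**Figure D4:**
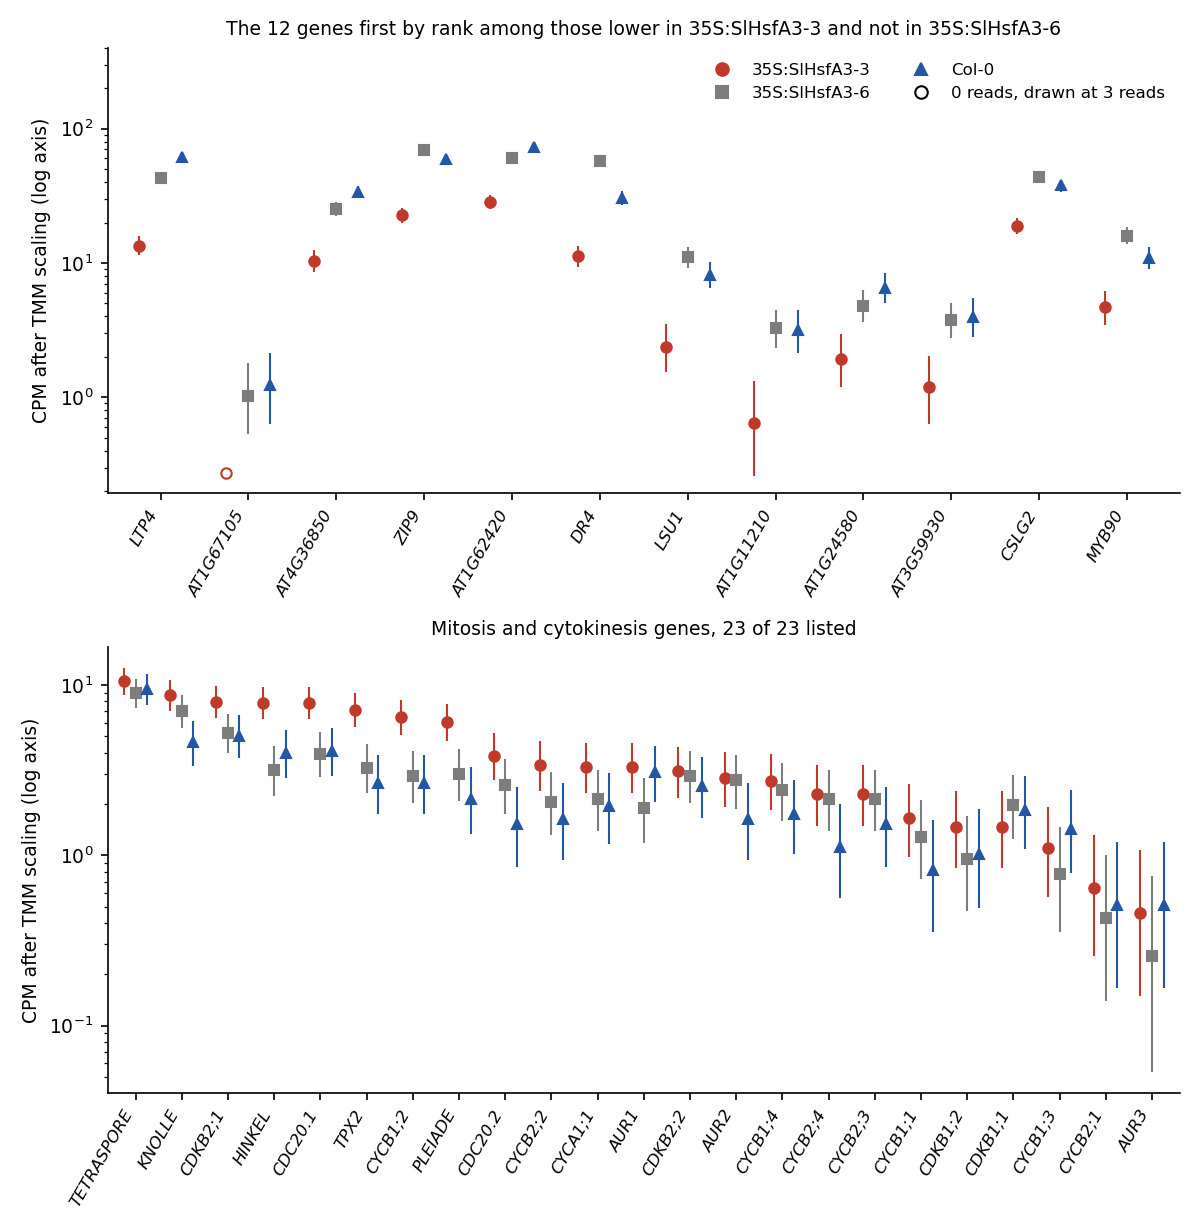
Levels in line #3, line #6 and Col-0 (CPM after TMM scaling, log axis), with 95% exact Poisson intervals for counting error only, of the 12 genes first by rank among those lower in line #3 and not in line #6 (top) and of 23 mitosis and cytokinesis genes (bottom), 1 library each. In the top panel line #3 is below both other libraries for every gene, and in the bottom panel it is the highest library for *TPX2*, *PLEIADE* and *CYCB1;2* at 7.14, 6.05 and 6.50 CPM.

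The 10 highest genes of line #3, ranked by the interval bound nearer 1, were called higher in line #6 too, except AT3G07850 and AT3G28790. The 10 lowest genes of line #3 by the same rank were each called lower in line #6 too. All of these except *PER64* had passed the read minimum only through Col-0, so they had to be lower in line #3. Of the 10 highest, *APX2*, *HSP25.3-P*, *MRD1*, AT3G07850 and AT3G28790 had passed it only through line #3 and had to be higher. The ratios of both lines share the Col-0 library. *FAR6*, a fatty acyl reductase gene, had 0 reads in line #3, 7 in line #6 and 105 in Col-0, at least 39.1-fold lower in line #3 against the limit of 3 reads (upper bound of the ratio by the exact interval 0.0320). *THI2.1*, a jasmonate-inducible thionin gene, had 6, 22 and 63 reads (11.7-fold lower), and *PER64*, a peroxidase of the Casparian strip, had 24, 40 and 167 (7.77-fold lower). *PER64* overlaps AT5G42190, with 544, 547 and 471 reads, and without strand their reads cannot be told apart. AT1G22480, a cupredoxin gene, had 2, 4 and 32 reads, and the defensin-like gene AT4G11393 had 5, 9 and 55. *AZI1*, a lipid transfer-like gene of systemic resistance, had 54, 118 and 240 reads (4.96-fold lower), and with *EARLI1* and AT4G12490 it formed a run of 3 lower neighbors. *SAG12*, a cysteine protease gene of senescence, had 0, 3 and 15 reads. Of 12 defensin-like genes compared, 5 were lower and none higher in line #3, the leading one AT1G34047 with 6, 37 and 207 reads. However, 4 of the 12 had passed the read minimum only through Col-0 and had to be lower.

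Genes of the secondary cell wall were called in both directions in line #3, but 16 of the 23 compared had a ratio below 1. Their median log2 ratio was -0.80 in each line, and in line #6, 10 were called lower and none higher. The read minimum fixed the direction of 2 that passed only through line #3 and 2 only through Col-0. In line #3, 9 were lower and 4 higher, beside 1.66% and 2.57% of all genes compared. With scaling by total reads 9 were lower and 1 higher in line #3. The lower ones include *CESA7* and *CESA4*, cellulose synthases of the secondary wall, with 61 and 141 reads in line #3, 61 and 116 in line #6, and 193 and 279 in Col-0 (3.53-fold and 2.21-fold lower in line #3). *MYB103*, a transcription factor of the same process, had 5, 7 and 33 reads and passed the read minimum only through Col-0. The higher ones were the laccases *LAC17* and *LAC11* and the xylem cysteine proteases *XCP1* and *XCP2*. *LAC11* had 67 reads in line #3, 34 in line #6 and 29 in Col-0, *XCP1* had 161, 126 and 71, and *XCP2* had 197, 126 and 87. Of the 13 called members, only *LAC17* and *LAC11* met the rule for line #3 and not line #6, and with total reads neither did.

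Of 16 iron deficiency genes, 5 were lower and none higher, and each was lower in line #6 as well. *BHLH38*, *BHLH39* and *BHLH100*, transcription factors of iron uptake, had 67, 28 and 41 reads in line #3, 33, 8 and 21 in line #6, and 138, 65 and 99 in Col-0. The short peptide genes *IMA1* and *IMA2* had 33 and 43 reads in line #3, 47 and 44 in line #6, and 88 and 105 in Col-0. *BHLH38* and *BHLH39*, and *IMA1* and *IMA2*, are similar neighbors whose reads may be shared. The transporter gene *IRT1* had 1, 1 and 4 reads, below the minimum.

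Several other lists held few called genes in line #3. None of 18 circadian clock genes, 22 glucosinolate genes or 7 clade A PP2C genes was called, by a rule that called 2.57% of all genes higher and 1.66% lower. Of 29 jasmonate genes 2 were lower (*THI2.1* and *VSP2*), and of 21 salicylate defense genes 2 were lower (*AZI1* and *EARLI1*). *VSP2*, a vegetative storage protein gene, had 284 reads in line #3, 589 in line #6 and 623 in Col-0. Of 14 cold and drought genes, *KIN1* was higher with 37, 22 and 9 reads, and *DR4* and *RCI2A* were lower. *KIN1* passed the read minimum only through line #3, and *THI2.1* only through Col-0, which fixed their direction. *KIN1* has a near-identical neighbor, *KIN2*, with 430, 548 and 584 reads, so its count is uncertain.

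**Figure D5:**
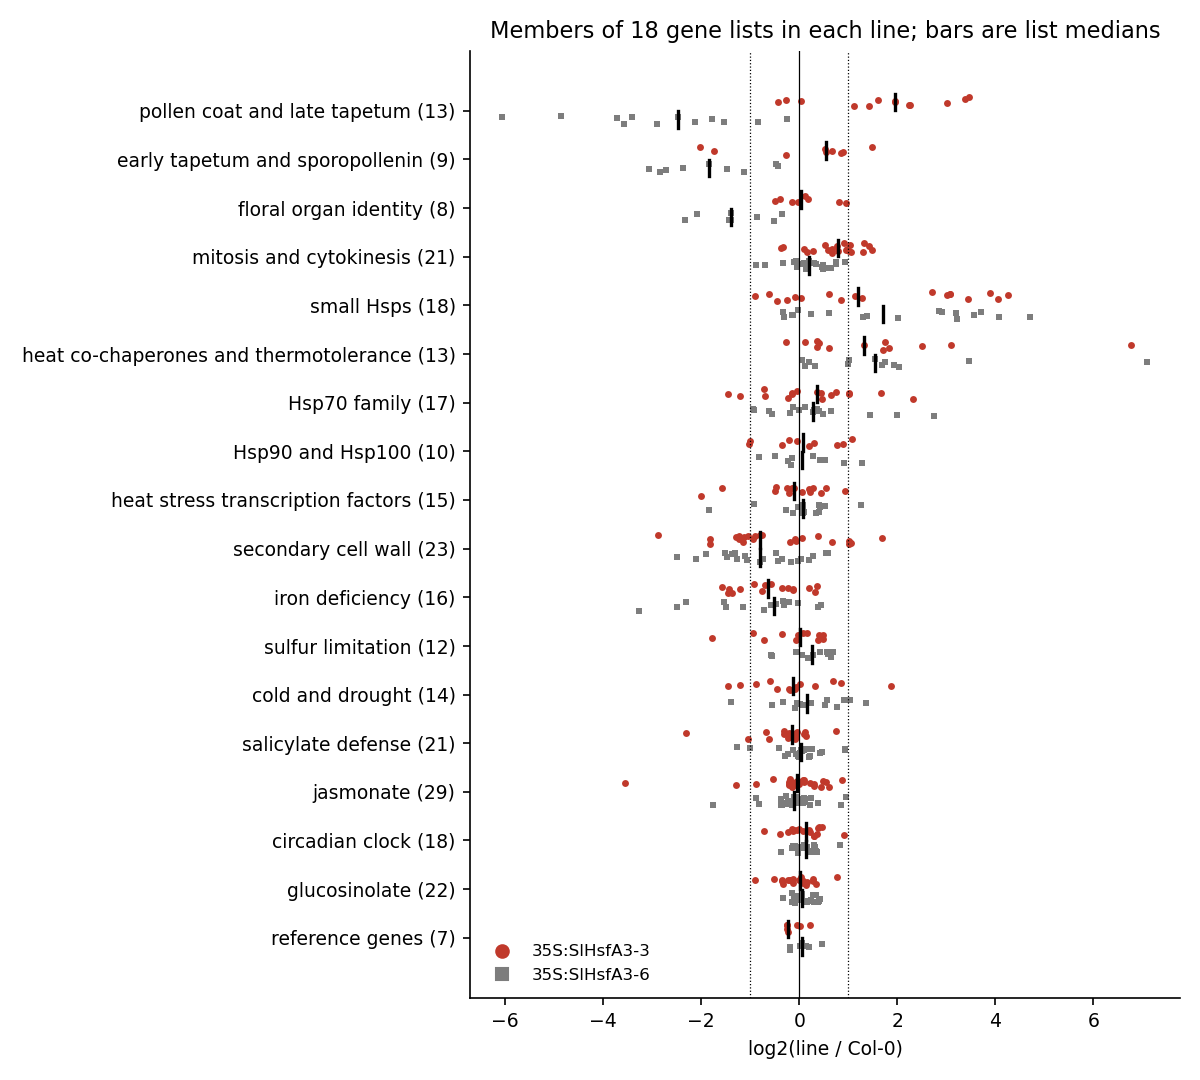
Log2 ratio to Col-0 of each compared member of 18 gene lists in line #3 (circles) and in line #6 (squares), with the number of members beside each name, list medians as bars and dotted lines at 2-fold. The medians of the pollen coat list lie at 1.95 in line #3 and -2.47 in line #6, whereas those of the small Hsp list lie at 1.21 and 1.702, and both lines share the Col-0 library.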

How the data were processed

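RNA from the aerial parts of unstressed line #3, line #6 and Col-0 plants was sequenced, 1 library each. The submitters' processing notes name CASAVA 1.7 and TAIR10; how reads were aligned and counted, and what was done with those that fit several genes, is not given in the sources used here, and the protocol names no strand-marking step, so overlapping genes are uncertain. The authors deposited the count of reads per gene, not normalized, and the length of each gene model. Their RPKM, fold, log2 and q-value columns and their lists of changed genes and categories hold their own comparisons and were not used.

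The counts were scaled by TMM over the 3 libraries (edgeR 4.0.16, R 4.3.3; factors 0.945 for line #3, 1.08 for line #6 and 0.981 for Col-0). Depth was 9968154 to 11556077 reads. Ratios and their exact intervals were computed with SciPy 1.17.1 (Python 3.11.15); a count of 0 was set to 3 reads for the size of a ratio, which is then a bound. The code of the rule was run on simulated Poisson counts. These hold counting error only, so that run says nothing about variation between plants or libraries. RefSeq entries (TAIR10.1) were found for 32835 of the 33602 loci. Of 769 genes called in line #3 with an entry, 217 overlap another annotated gene, and not all of them are flagged in the text.

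Named genes were drawn from the 12 first in each direction for line #3 and not line #6, and from the 10 first of all called. Both were ranked by the interval bound nearer 1. Each list gave up to 5 that were called, or the 2 with most reads where none was. Added to these were 5 genes called in opposite directions in the lines, *AtHSFA3* and the reference genes. Not every gene that qualified is named. Further list members and others were chosen after their values were seen. The members and lists were chosen with earlier results of these data known. Alternatives covered scaling (total reads, DESeq2 1.42.0 size factors, TMM without organelle and ribosomal RNA genes), the read minimum, the fold limit, the interval, the limit on line #6 and 0.5 read added to both libraries.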

Additional observations from a re-analysis of the deposited data

Results flagged for a closer look

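In 12 genes the ratio to Col-0 was called higher in line #3 and lower in line #6; the difference between the lines was not tested, because each had 1 library. By ratio of line #3 to Col-0 they were *GRP17* at 8.09, *GRP14* at 4.78, *GRP19* at 4.71, *GRP20* at 3.85, *ATA20* at 3.03, *ACOS5* at 2.82, *EXL4* (AT1G75910) at 2.69, *SWEET10* at 2.69, *XTH3* at 2.42, *ATA27* at 2.16, the peroxidase gene AT4G16270 at 2.07 and the GDSL lipase gene AT1G20130 at 2.06. No gene was called lower in line #3 and higher in line #6. *GRP14*, *ACOS5* and *SWEET10* passed the read minimum only through line #3, so they had to be higher there. *SWEET10*, a sucrose transporter gene, had 24 reads in line #3, 1 in line #6 and 8 in Col-0. *XTH3*, a xyloglucan-modifying enzyme gene, had 46, 0 and 17, AT1G20130 had 62, 0 and 27, and AT4G16270 had 30, 5 and 13. Against Col-0, line #6 was 66.6-fold lower for *GRP17* (ratio 0.015, 95% exact interval 0.000373 to 0.0871, from 1 read in line #6 and 56 in Col-0) and at least 28.9-fold lower for *ATA27*. With scaling by total reads AT1G20130 and AT4G16270 were 1.98-fold and 1.99-fold higher in line #3 and not called, which left 10 such genes. There were 6 with at least 50 reads, 5 with a 3-fold limit and 8 with a 99% interval.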

How the results depend on the processing

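With at least 50 reads required, 184 genes were higher and 121 lower in line #3 than in Col-0, and 29 were higher and 12 lower in line #3 and not in line #6. With a 3-fold limit these 4 counts were 186, 105, 38 and 20. A 99% interval gave 58 higher and 27 lower in line #3 and not in line #6, and total reads gave 61 and 92. Fewer genes can pass a stricter limit; with total reads all 61 were among the 97, and all 51 genes lower with TMM were among the 92. The other alternatives, median-ratio size factors, TMM without organelle and ribosomal RNA genes, a minimum of 1 read and a tighter or looser limit on line #6, left each count they bear on within 1.5 times. Of 127 named genes no called ratio changed sign under another scaling or with 0.5 read added, but with total reads *BIP3*, *CYCB2;2*, *rpoB*, ATCG00810, ATMG00513 and AT4G33420 fell just short of 2-fold, the last pair also with 0.5 read added. No paired analysis was possible because there is 1 library a side and no replicate number. The limit on all values is the single library: intervals cover counting error only, and most genes called in line #3 and not in line #6 had fewer than 50 reads.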

Other observations

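Neighbors of *HSA32* on chromosome 4 were called with it in line #3 and in line #6, but AT4G21323 overlaps *HSA32* in the annotation and without strand their reads cannot be told apart. AT4G21310 had 17 reads in line #3, 16 in line #6 and 4 in Col-0, and AT4G21323 had 22, 22 and 2. Of the 7 runs of 3 or more neighboring compared genes called the same way in line #3, 5 were higher and 2 lower. In the run of AT4G04370, AT4G04410 and AT4G04460 only the last met the rule for line #3 and not line #6, with 79, 25 and 23 reads. AT4G04410 is a transposable element gene, with 149, 138 and 29 reads. Of 130 transposable element genes compared, 17 were higher and 7 lower in line #3, 8 and 4 of them in both lines, beside 2.57% and 1.66% of all genes compared. The read minimum had been passed only through line #3 by 19 of the 130 and only through Col-0 by 9, which fixed their direction. Of 34 peroxidase superfamily genes, 7 were higher and 3 lower. The leading higher one, AT5G64120, had 1015, 937 and 344 reads.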
